A study of Mus musculus with 2 samples.

Results

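Hypoxic tumour cells were defined in 2 droplet libraries of dissociated RM-1 tumours as tumour cells in which 5 oxygen-responsive genes, Bnip3, Egln3, Ankrd37, Ndrg1 and Pdk1, together made up at least 0.08% of the unique molecular identifiers (UMIs, which count captured RNA molecules). A tumour cell was a barcode with at least 2000 UMIs, at least 500 detected genes, at most 15% mitochondrial UMIs, at least 3 UMIs of the keratins Krt8 and Krt18, and at most 1 UMI of the leukocyte genes Ptprc, Lyz2, C1qa and Fcer1g. The rule chose 3851 hypoxic cells of 15197 tumour cells, out of 20198 barcodes in all. The RP-6306 library held 1651 of them and the vehicle library 2200, and the other 11346 tumour cells are called remaining cells below.

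RM-1 is a mouse prostate cancer cell line, given the genotype WT in the labels and grown under the skin of C57BL/6 mice. RP-6306 inhibits PKMYT1, a kinase that restrains the mitotic kinase CDK1. Tumours treated with RP-6306 or with vehicle were taken 10 days after treatment, and each treatment is 1 library, with no replicate. Whether a library came from 1 tumour or from pooled tumours is not clear from the labels, and a subcutaneous graft of a cell line differs in site and blood supply from a tumour of the prostate.

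When oxygen is scarce, prolyl hydroxylases no longer mark the transcription factor subunit HIF-1α for destruction by the VHL ubiquitin ligase. HIF-1α then pairs with ARNT and switches on genes for glucose uptake, glycolysis, mitophagy, acid export and vessel growth. In solid tumours such cells typically lie far from blood vessels, and many divide slowly. Of the rule's genes, Bnip3 encodes a mitophagy receptor, Egln3 a prolyl hydroxylase that is itself a HIF target, Pdk1 a kinase that keeps pyruvate out of the mitochondria, Ndrg1 a stress-induced cytoplasmic protein, and Ankrd37 a HIF-induced ankyrin repeat protein.

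The promoter windows of 4 of these genes are shown because the rule rests on HIF target genes, and HIF binds a short core sequence. That core was searched as ACGTG and as GCGTG on both strands of a window of 300 bases, from 250 bases before to 50 bases after the annotated start, taken from RefSeq on GRCm38.p6. Capitals mark the matches, and a match in reverse appears as CACGT or CACGC. The E-box CACGTG, bound by other factors, contains ACGTG once on each strand. Bnip3 (chr7:138909457-138909756, minus strand) had 2 matches to ACGTG, both from 1 E-box, and 3 to GCGTG. Egln3 (chr12:54203825-54204124, minus strand) had 1 to ACGTG, and Pdk1 (chr2:71872974-71873273, plus strand) had 2 to GCGTG. Ankrd37 (chr8:45999801-46000100, minus strand) had 2 to each.
Bnip3: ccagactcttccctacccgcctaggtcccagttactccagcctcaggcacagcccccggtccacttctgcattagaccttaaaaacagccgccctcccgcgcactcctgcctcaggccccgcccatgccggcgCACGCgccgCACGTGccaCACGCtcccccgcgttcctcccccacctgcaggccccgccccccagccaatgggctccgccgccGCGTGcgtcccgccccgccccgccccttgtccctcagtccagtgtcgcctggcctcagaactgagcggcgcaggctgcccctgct
Egln3: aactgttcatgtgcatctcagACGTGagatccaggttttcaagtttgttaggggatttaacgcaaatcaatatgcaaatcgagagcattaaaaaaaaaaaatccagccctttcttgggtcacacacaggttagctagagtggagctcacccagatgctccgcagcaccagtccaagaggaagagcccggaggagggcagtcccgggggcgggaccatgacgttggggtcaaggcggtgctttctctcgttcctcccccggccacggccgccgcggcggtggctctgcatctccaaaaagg
Ankrd37: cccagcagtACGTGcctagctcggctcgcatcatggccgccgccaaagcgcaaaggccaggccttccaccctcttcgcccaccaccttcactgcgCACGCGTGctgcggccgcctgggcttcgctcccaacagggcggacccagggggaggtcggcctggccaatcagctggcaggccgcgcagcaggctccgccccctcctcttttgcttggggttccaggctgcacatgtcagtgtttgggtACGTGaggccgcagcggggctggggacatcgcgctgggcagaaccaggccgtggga
Pdk1: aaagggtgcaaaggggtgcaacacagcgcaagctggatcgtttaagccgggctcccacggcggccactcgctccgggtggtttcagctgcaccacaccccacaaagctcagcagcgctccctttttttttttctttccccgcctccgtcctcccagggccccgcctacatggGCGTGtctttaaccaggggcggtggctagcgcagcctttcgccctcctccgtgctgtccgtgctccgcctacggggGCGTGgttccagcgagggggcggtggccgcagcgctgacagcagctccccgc
Ero1a, which encodes the oxidase that drives disulphide formation in the endoplasmic reticulum, and Car9, which encodes a carbonic anhydrase of the cell surface that handles acid, were outside the rule and had high ratios of hypoxic to remaining cells. Ero1a (chr14:45318523-45318822, minus strand) had 1 match to ACGTG and 2 to GCGTG, and Car9 (chr4:43506776-43507075, plus strand) had 1 to ACGTG.
Ero1a: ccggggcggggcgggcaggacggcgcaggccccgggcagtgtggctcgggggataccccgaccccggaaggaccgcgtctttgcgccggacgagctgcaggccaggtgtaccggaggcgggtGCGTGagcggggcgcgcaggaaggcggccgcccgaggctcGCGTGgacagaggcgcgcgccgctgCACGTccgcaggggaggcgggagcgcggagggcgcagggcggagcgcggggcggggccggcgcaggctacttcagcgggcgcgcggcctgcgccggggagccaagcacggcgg
Car9: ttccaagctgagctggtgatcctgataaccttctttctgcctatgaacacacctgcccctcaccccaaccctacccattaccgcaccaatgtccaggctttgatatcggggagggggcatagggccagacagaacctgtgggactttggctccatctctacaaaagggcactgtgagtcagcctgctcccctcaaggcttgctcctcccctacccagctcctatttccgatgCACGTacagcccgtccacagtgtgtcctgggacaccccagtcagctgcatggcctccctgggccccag
Of all 27025 promoter windows, 19.6% held ACGTG, 32.5% GCGTG, 43.8% either and 7.24% the E-box, so a match is common. Among the 6193 of 7787 tested genes that had a window a match was more common still, with 28.3% holding ACGTG, 55.6% GCGTG and 67.6% either. Of the 143 genes called higher in hypoxic cells below, 111 had a window. Of these 111, 39.6% held ACGTG, 49.5% GCGTG and 64.0% either. Thus ACGTG was more common than among tested genes, while GCGTG and either core were not, and the differences were not tested. No match was found in the window of Vegfa, a known HIF target, which says only that these letters are not in this stretch. Ndrg1 lies on the minus strand at chr15:66929318-66969640 in GENCODE M21 on GRCm38, and Hmox1 on the plus strand at chr8:75093621-75100589.

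Hypoxic cells made up 21.3% of the tumour cells in the RP-6306 library (95% exact binomial interval 20.4 to 22.2) and 29.6% in the vehicle library (28.6 to 30.7). The difference was -8.33 percentage points (95% interval -9.72 to -6.94, square-and-add). All intervals here cover counting error only, not the spread between tumours, and with 1 library per treatment no test of the treatment was possible. The share was lower in the RP-6306 library in each of 5 ranges of depth. Among cells with 2000 to 5000 UMIs it was 33.2% with RP-6306 and 35.3% with vehicle, and the 2 intervals overlapped. Among cells with 5000 to 10000 UMIs it was 25.8% and 33.8%, and from 10000 to 15000 UMIs it was 17.9% and 27.5%. From 15000 to 20000 UMIs it was 16.3% and 23.4%, and at 20000 or more it was 11.4% and 23%, in the same order of libraries. The gap was wider in each of the 4 deeper ranges than in the shallowest, and in both libraries the share was lower there. After every cell was thinned to 2000 UMIs, the share was 26.0% with RP-6306 and 33.6% with vehicle.

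**Figure D1:**
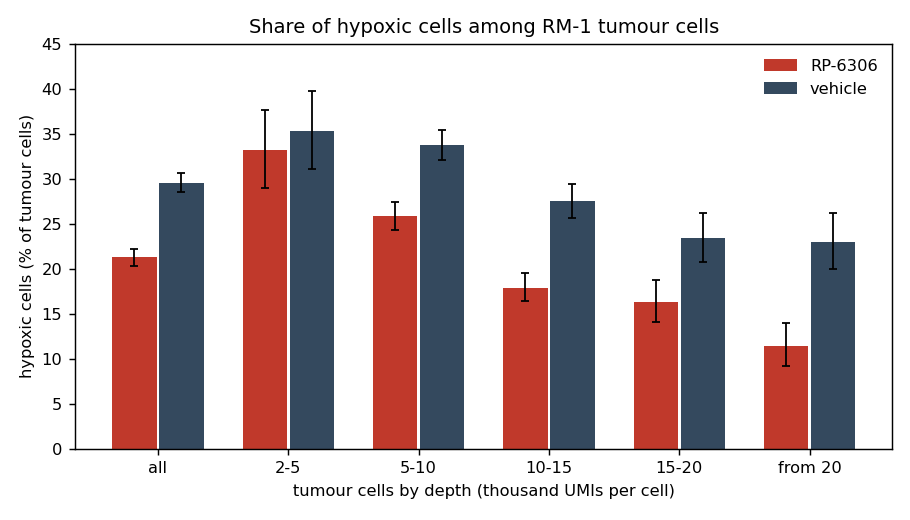
Share of tumour cells that met the hypoxic rule (y axis, percent, with 95% exact binomial intervals) in each range of UMIs per cell (x axis), RP-6306 left of vehicle. The RP-6306 share is below the vehicle share in all 5 ranges, 33.2% against 35.3% in the shallowest and 11.4% against 23% in the deepest.

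Hypoxic cells were somewhat shallower than remaining cells. Their median depth was 9055 UMIs in the RP-6306 library and 9529.5 in the vehicle library, against 10779 and 10727 in remaining cells. They had a median of 2898 and 3050 detected genes, against 3304 and 3336, and 1.19% and 1.25% mitochondrial UMIs, against 1.31% and 1.33%. Summed, they held 16848128 UMIs in the RP-6306 library and 24165281 in the vehicle library, and remaining cells 74468313 and 63472690. The libraries shared 34 barcodes, of which 17 were tumour cells in both and 1 was hypoxic in both. Depth thus moved with the groups, and thinned or depth-weighted values are given where they bear on a result.

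The label rests on few molecules per cell. The median hypoxic cell had 12 UMIs of the rule's 5 genes in each library, against 3 in the median remaining cell, and the median share was 0.122% with RP-6306 and 0.121% with vehicle, against 0.0264% and 0.0318% in remaining cells. Ndrg1 alone supplied 61.9% of these UMIs in the RP-6306 library and 58.2% in the vehicle library, and Bnip3 18.1% and 20.01%. Egln3 gave 9.32% and 10.3%, Pdk1 5.58% and 6.34%, and Ankrd37 5.08% and 5.21%. All 5 genes were detected in 239 hypoxic cells of the RP-6306 library and 402 of the vehicle library, and 4 of them in 514 and 822. Only 71 and 57 cells were chosen on a single gene, which was Ndrg1 in 70 and 54. Most hypoxic cells thus showed several of the genes at once, which a choice on the sum of the same genes favours. The number detected also went with depth. Median depth was 6237 UMIs with 1 gene and 12547 with 5 in the RP-6306 library, and 6094 and 13526 in the vehicle library. Remaining cells were not counted in this way. Among leukocyte barcodes, with at least 5 UMIs of the leukocyte genes, 13.8% (10.8 to 17.2) passed the same threshold with RP-6306 and 14.1% (11 to 17.6) with vehicle, at median depths of 4523.5 and 4982 UMIs. Leukocytes can themselves be hypoxic, so this is not a pure background. The shares in tumour cells of 2000 to 5000 UMIs, a like depth, were above it in both libraries.

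The values of the 5 genes chose the cells and are a description. Levels are given as CPM, counts scaled to a common total of UMIs over the summed cells, which compare a gene between groups of cells but not different genes. Ndrg1 stood at 833 CPM in hypoxic and 162 CPM in remaining cells with RP-6306, and at 789.6 and 163 CPM with vehicle. Bnip3 stood at 244 and 50.5 CPM with RP-6306, and at 272 and 68.0 CPM with vehicle. Egln3 stood at 125 and 37.8 CPM with RP-6306, and at 139.5 and 51.3 CPM with vehicle. In remaining cells the levels of Bnip3 and Egln3 were lower with RP-6306, while Ndrg1 was nearly equal. Ankrd37 stood at 68.4 and 18.5 CPM with RP-6306, and at 70.8 and 22.7 CPM with vehicle, and Pdk1 at 75.1 and 28.1 CPM and at 86.1 and 36.8 CPM.

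The 5 genes tracked each other when each was held out in turn. In cells chosen on the other 4 genes, with the threshold scaled to their share of the UMIs, Bnip3 was 3.35 times (95% interval 3.20 to 3.50) its level in the other tumour cells with RP-6306 and 2.73 times (2.63 to 2.84) with vehicle. Ankrd37 was 2.89 times its level with RP-6306 and 2.43 times with vehicle, Ndrg1 2.81 and 2.45 times, Egln3 2.58 and 2.07 times, and Pdk1 2.17 and 1.84 times. Each held-out ratio was thus above 1 in both libraries and higher in the RP-6306 library. Of the hypoxic cells, 1108 with RP-6306 (67.1%) and 1655 with vehicle (75.2%) also passed on the 4 genes without Ndrg1. Ero1a, outside the rule, stood at 318 CPM in these cells with RP-6306 and 308 CPM with vehicle. In the 543 and 545 hypoxic cells that passed only with Ndrg1 counted, it stood at 209.6 and 201 CPM, against 72.1 and 74.7 CPM in remaining cells. Cells that rested on Ndrg1 were thus intermediate for Ero1a.

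Just inside the threshold, at 0.08% to 0.09%, were 238 cells with RP-6306 and 328 with vehicle, and just outside, at 0.07% to 0.08%, were 339 and 411. Ero1a stood at 178 CPM just inside and 152 CPM just outside with RP-6306, and at 154 and 137 CPM with vehicle. Ndrg1, whose level these ranges largely fix, stood at 510.3 and 459.7 CPM with RP-6306, and at 454 and 391 CPM with vehicle. Cxcl10, a chemokine outside the rule, stood at 211 and 237 CPM with RP-6306 and at 132 and 95.7 CPM with vehicle, so its order differed between the libraries.

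Across 7787 genes outside the rule, with a mean of at least 10 CPM, 143 (1.84%) were at least 1.5-fold higher and 311 (3.99%) at least 1.5-fold lower in hypoxic than in remaining cells in both libraries. A gene past that fold is said to be called below, and counts of such genes in the lists stand against these shares. Because the cells were chosen on genes measured in the same cells, these counts and folds describe the cells and were not tested. Ratios are given as the log2 of CPM plus 1 in hypoxic over remaining cells, which understates the fold of genes at low levels. Of the 143 higher genes, 30 averaged under 10 CPM in remaining cells and passed the filter only through hypoxic cells, and of the 311 lower genes 77 passed only through remaining cells, which favours a difference in them. At any fold, 2815 of the 7787 genes were higher and 3789 lower in hypoxic cells of both libraries. Counts by direction in the lists stand against these. The median ratio over all tested genes was -0.05 with RP-6306 and -0.03 with vehicle. The counts of higher and lower genes were 55 and 151 when the cells were chosen after thinning and their full counts compared. They were 80 and 145 without Ndrg1 in the rule. In cells with little cell cycle RNA, an alternative chosen after seeing the data, they were 86 and 48.

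**Figure D2:**
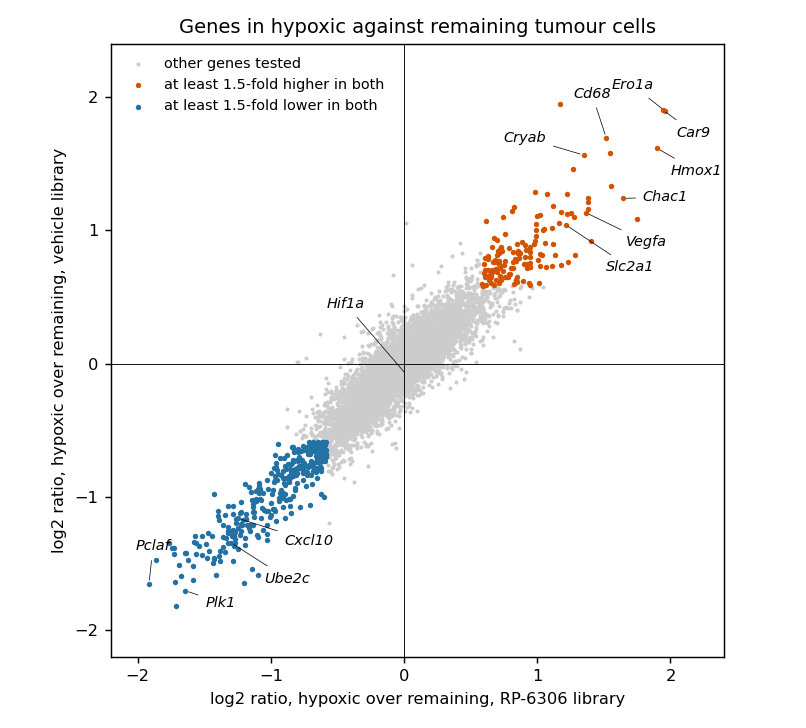
Log2 ratio of hypoxic over remaining cells for each tested gene in the RP-6306 library (x axis) and the vehicle library (y axis), with called and named genes marked. Ero1a, at 1.96 with RP-6306 and 1.90 with vehicle, lies at one end of the diagonal and Pclaf, at -1.91 and -1.65, at the other.

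Other oxygen-responsive genes were among those with the highest ratios outside the rule. By the smaller of the 2 libraries' ratios, Cryab, Mmp10 and Serpinb2, given below, lay between Hmox1 and Vegfa. Ero1a stood at 283 CPM in hypoxic and 72.1 CPM in remaining cells with RP-6306, a ratio of 3.92 (95% interval 3.77 to 4.08), and at 281 and 74.7 CPM with vehicle, a ratio of 3.77 (3.63 to 3.91). Car9 stood at 23.1 and 5.26 CPM with RP-6306 (ratio 4.39, 3.80 to 5.06), and at 23.6 and 5.58 CPM with vehicle (ratio 4.24, 3.70 to 4.85), and passed the filter of 10 CPM through its level in hypoxic cells. Vegfa, the vascular growth factor, stood at 186 and 71.7 CPM with RP-6306 (ratio 2.60, 2.49 to 2.72) and at 185 and 84.0 CPM with vehicle (ratio 2.21, 2.12 to 2.30). These 3 genes were thus high in hypoxic cells of both libraries at nearly the same level. Hmox1, haem oxygenase, which breaks down haem and answers to oxidative stress as well as to hypoxia, stood at 193 and 51.2 CPM with RP-6306 and at 155 and 49.9 CPM with vehicle. Its level in hypoxic cells was 1.24 times (1.19 to 1.30) as high with RP-6306, below the 1.5-fold used for a call.

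Glucose uptake and glycolysis genes were higher in hypoxic cells as a group. All 19 tested of 21 listed were higher in both libraries, with a median log2 ratio of 0.57 with RP-6306 and 0.48 with vehicle, and 6 of the 19 were called, against 1.84% of all tested genes. Slc2a1, the main glucose transporter of many tumours, stood at 284 and 122 CPM in hypoxic and remaining cells with RP-6306, and at 299 and 145 CPM with vehicle. Slc2a3, a high-affinity glucose transporter, stood at 22.1 and 7.90 CPM with RP-6306 and at 27.6 and 11.8 CPM with vehicle, and it passed the filter of 10 CPM through its level in hypoxic cells. The log2 ratios of both transporters were above 1 in both libraries, 1.21 and 1.04 for Slc2a1 and 1.38 and 1.16 for Slc2a3, with RP-6306 given before vehicle. Of the enzymes, Pfkp, a phosphofructokinase, had 1.02 and 0.73, Hk2, a hexokinase, 0.71 and 0.61, Pgk1, phosphoglycerate kinase, 0.69 and 0.63, and Aldoc, an aldolase, 0.64 and 0.64. Gapdh had 0.42 in each library and Ldha, which turns pyruvate into lactate, 0.35 and 0.19, so these 2 enzymes differed by less than 1.5-fold. Slc16a3, which exports lactate, stood at 223 and 116 CPM with RP-6306 and at 218 and 154 CPM with vehicle, and its log2 ratios of 0.94 and 0.50 fell short of a call through the vehicle library.

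Genes that adjust mitochondria to low oxygen followed, with 5 of 8 tested of 12 listed called higher, against 1.84% of all tested genes. Their median log2 ratio was 0.80 with RP-6306 and 0.66 with vehicle. Higd1a, an inner-membrane protein that tunes the respiratory chain, stood at 209 and 92.8 CPM in hypoxic and remaining cells with RP-6306, and at 192 and 91.9 CPM with vehicle. Bnip3l, the mitophagy receptor related to Bnip3, stood at 167 and 98.9 CPM with RP-6306 and at 181 and 108 CPM with vehicle. Ak4, a mitochondrial adenylate kinase, stood at 27.7 and 11.2 CPM with RP-6306 and at 24.7 and 14.1 CPM with vehicle. Mxi1, which counters MYC, and Fam162a, a mitochondrial protein induced by HIF, had log2 ratios of 0.82 and 0.71 and of 0.82 and 0.60. Of the other tested genes, Fundc1, another mitophagy receptor, was slightly lower, at -0.22 and -0.14.

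The respiratory chain itself was slightly lower. Of 52 nuclear-encoded oxidative phosphorylation genes, all tested, 51 were lower in hypoxic cells of both libraries, but by little: the median log2 ratio was -0.24 with RP-6306 and -0.18 with vehicle, and none was called. Ndufa4, a subunit of complex IV, stood at 546 and 817 CPM in hypoxic and remaining cells with RP-6306 and at 555 and 804 CPM with vehicle. Of 15 tricarboxylic acid cycle genes 11 were lower in both libraries, against 3789 of all 7787 tested genes. Their medians were -0.14 and -0.09, and none was called. The 11 tested genes encoded in the mitochondrial genome had medians of -0.01 and 0.02. Their sum was nevertheless lower in hypoxic cells, at 0.893 times the remaining cells with RP-6306 and 0.908 times with vehicle, against 0.849 and 0.862 times for the sum of the nuclear-encoded list. The difference between the 2 lists was not tested.

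The medians of 20 tested of 25 listed other oxygen-responsive genes were 0.64 with RP-6306 and 0.52 with vehicle. Among them 19 were higher in both libraries, and 6 were called, against 1.84% of all tested genes. Besides Ero1a and Hmox1 these were Gys1, muscle-type glycogen synthase, at 1.11 and 1.02, Vldlr, a lipoprotein receptor, at 1.06 and 0.91, Kdm4b, an oxygen-dependent histone demethylase that passed the filter only through hypoxic cells, at 0.74 and 0.85, and Insig2, which retains sterol sensors in the endoplasmic reticulum, at 0.69 and 0.69. Tfrc, the transferrin receptor, was the exception, at -0.04 and -0.48. Of 14 tested collagen and matrix genes, 4 were called higher, against 1.84% of all tested genes. They were the collagen prolyl hydroxylase subunits P4ha1 and P4ha2 and the metalloproteinases Mmp10 and Mmp13. P4ha2 stood at 170.3 and 82.2 CPM in hypoxic and remaining cells with RP-6306 and at 113 and 55.8 CPM with vehicle. P4ha1 stood at 318 and 187 CPM with RP-6306 and at 271 and 158 CPM with vehicle. Both subunits were thus higher in hypoxic cells in each library, by similar folds. Mmp10 had log2 ratios of 1.27 and 1.46, and Mmp13 1.75 and 1.09.

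Of 7 tested secreted vascular factors, Vegfa and Stc1 were called. Stc1, stanniocalcin, stood at 58.2 and 25.1 CPM in hypoxic and remaining cells with RP-6306 and at 47.7 and 28.1 CPM with vehicle. Vegfb, Vegfc, Angpt2 and Angptl4 lay between -0.39 and 0.19 on the log2 scale, so the list as a whole was not raised, with medians of 0.06 and 0.19. Car9 was the only called gene of 4 tested acid and bicarbonate handling genes. Of 8 tested genes of oxygen sensing, Egln1, the main prolyl hydroxylase that marks HIF-1α, was the only called one, at 24.8 and 13.4 CPM with RP-6306 and at 25.4 and 13.2 CPM with vehicle. The mRNA of Hif1a itself hardly differed, at 128 and 127 CPM with RP-6306 and at 113 and 120.0 CPM with vehicle. Epas1, which encodes HIF-2α, had log2 ratios of 0.00 and 0.10, and Arnt 0.27 and 0.41.

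Several of the 15 highest genes at 50 CPM or more belong to none of the lists above. Lgals3, galectin-3, stood at 572 and 239 CPM in hypoxic and remaining cells with RP-6306 and at 623 and 284 CPM with vehicle. Sat1, which acetylates polyamines, stood at 634 and 292 CPM with RP-6306 and at 644 and 283 CPM with vehicle. Cryab, a small heat shock protein, stood at 128 and 49.7 CPM with RP-6306 and at 117 and 38.7 CPM with vehicle. All 3 were above 1 on the log2 scale in both libraries, with Cryab at 1.35 and 1.57. The others were Serpinb2, a plasminogen activator inhibitor, at 1.22 and 1.28, and Klf5, an epithelial transcription factor, at 1.05 and 1.01. Atp6v1b2, a subunit of the proton pump of lysosomes, was at 0.997 and 1.11, Pdgfa, a growth factor of mesenchymal cells, at 0.99 and 1.05, and Nppb, which encodes B-type natriuretic peptide, at 0.99 and 1.01. Of keratins and epithelial adhesion genes 1 of 12 tested was called, Krt19, at 0.95 and 0.73. Krt8, which with Krt18 marks the tumour cells, stood at 914 and 755 CPM in hypoxic and remaining cells with RP-6306 and at 1218 and 966 CPM with vehicle.

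**Figure D3:**
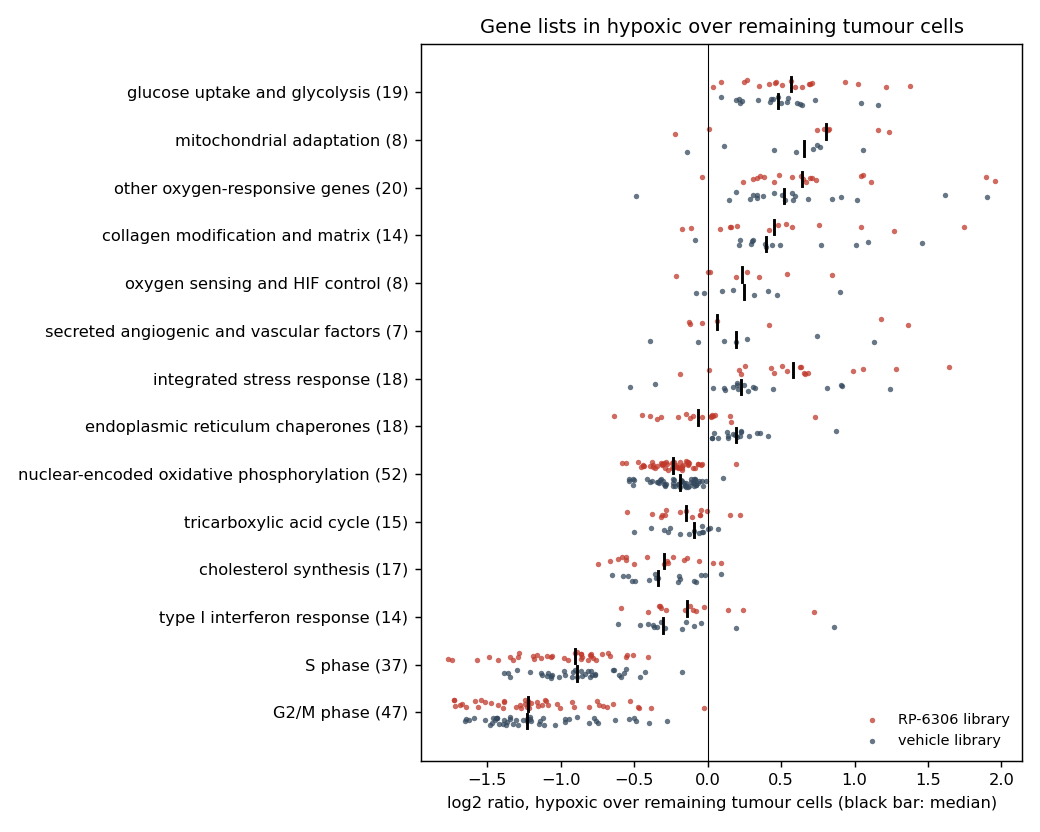
Log2 ratio of hypoxic over remaining cells (x axis) for the tested genes of each list (y axis, number of genes in brackets), 1 point per gene, with the RP-6306 library above the vehicle library and a black bar at each median. The medians of mitochondrial adaptation, at 0.80 with RP-6306 and 0.66 with vehicle, and the G2/M list, at -1.22 and -1.23, lie on opposite sides of 0.

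Genes of cell division were the lower side of the comparison. All 47 tested of 52 G2/M genes and all 37 tested of 42 S phase genes were lower in hypoxic cells of both libraries, and 41 and 31 of them were called, against 3.99% of all tested genes. In each list 6 of the called genes passed the filter only through remaining cells. The median log2 ratio was -1.22 with RP-6306 and -1.23 with vehicle for G2/M, and -0.90 and -0.89 for S phase. Pclaf, a partner of the replication clamp, stood at 50.6 and 193 CPM in hypoxic and remaining cells with RP-6306, a ratio of 0.261 (0.244 to 0.280), and at 61.3 and 195 CPM with vehicle, a ratio of 0.315 (0.298 to 0.332). Cdc20, an activator of the anaphase-promoting complex, stood at 36.3 and 118 CPM with RP-6306 and at 50.2 and 153 CPM with vehicle. Rrm2, a subunit of the enzyme that makes deoxynucleotides, stood at 21.5 and 75.6 CPM with RP-6306 and at 30.9 and 80.1 CPM with vehicle. Each of these was lower in hypoxic cells in both libraries. Of the other 12 genes among the 15 lowest, the mitotic genes Aurkb, Cenpf, Nusap1, Ccnb1, Ccnb2, Cdca3, Birc5, Cenpa, Knstrn and Ube2c had log2 ratios between -1.72 and -1.30. Tyms, thymidylate synthase, was at -1.49 and -1.36, and H1f5, a linker histone, at -1.41 and -1.59.

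Cdk1, the mitotic kinase that PKMYT1 restrains, stood at 52.6 and 128 CPM in hypoxic and remaining cells with RP-6306 and at 64.9 and 167 CPM with vehicle. Pkmyt1 itself stood at 5.52 and 9.43 CPM with RP-6306 and at 7.57 and 11.9 CPM with vehicle, and its ratio between RP-6306 and vehicle hypoxic cells was 0.729 (0.562 to 0.941), from 93 and 183 UMIs. Both genes were thus lower in hypoxic than in remaining cells, but Pkmyt1 averaged under 10 CPM and was not among the tested genes. Cdkn1a, which encodes the CDK inhibitor p21, stood at 566 and 369.96 CPM with RP-6306 and at 503 and 390.3 CPM with vehicle. Cdkn2c, another CDK inhibitor, was called lower, at -1.02 and -0.94, but passed the filter of 10 CPM only through remaining cells.

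Fewer hypoxic cells carried a strong mitotic signature. Cells with at least 1% of UMIs from the G2/M list were 61 of 1651 hypoxic cells with RP-6306, or 3.69% (2.84 to 4.72), and 124 of 2200 with vehicle, or 5.64% (4.71 to 6.68). Among remaining cells they were 13.4% with RP-6306 and 19.1% with vehicle. Cells with at least 0.5% from the S phase list were 1.27% and 2.09% of hypoxic cells, against 8.69% and 8.62% of remaining cells. Such cells were deeper than most, with median depths of 14373 to 15308 UMIs for the G2/M list, and the shares were not thinned to 1 depth. When remaining cells were weighted to the depth of the hypoxic cells, the G2/M medians were -0.98 with RP-6306 and -1.10 with vehicle and the S phase medians -0.81 and -0.81.

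The oxygen-responsive genes also differed among cells with little cell cycle RNA, a restriction that by construction narrows the difference in cell cycle genes. In cells with the G2/M and S phase lists together under 0.5% of UMIs, the G2/M median was -0.16 with RP-6306 and -0.15 with vehicle. Of 22 tested G2/M genes 1 was called, and the S phase median was -0.47 and -0.33. In the same cells glycolysis genes had medians of 0.44 and 0.40, with 3 called, and other oxygen-responsive genes 0.49 and 0.35. Over all 7666 genes tested in these cells, 86 were called higher and 48 lower. Without Ndrg1 in the rule, the G2/M medians were -0.86 and -0.62, glycolysis 0.56 and 0.47 and other oxygen-responsive genes 0.53 and 0.42.

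Several levels went up or down with the rule's share. Over 6 bins of that share, from under 0.02% to 0.2% or more, Ero1a stood at 47.7, 70.3, 125, 200.4, 328 and 515 CPM with RP-6306, and at 49.6, 68.4, 116, 195, 319.9 and 550.5 CPM with vehicle. Car9 stood at 2.26 CPM in the lowest and 44.4 CPM in the highest bin with RP-6306, and at 2.11 and 44.4 CPM with vehicle. Hif1a was flat, at 127.3 and 127.0 CPM in the lowest and highest bins with RP-6306 and at 118 and 117 CPM with vehicle. Ero1a was thus higher in each bin than in the one before it, on both sides of the threshold. The summed G2/M list stood at 6506, 4424, 3203, 2711, 1987 and 2188 CPM with RP-6306, and at 7416, 6046, 4559, 3303, 2399 and 1968 CPM with vehicle. Cxcl10, an interferon-induced chemokine that attracts T cells, stood at 403, 318, 244, 178, 105 and 88.8 CPM with RP-6306, and at 244, 189, 145, 101, 73.0 and 66.6 CPM with vehicle. Both ran against the rule's share, and Cxcl10 was higher with RP-6306 in each of the 6 bins. Depth also fell along the bins, with a median of 10921 UMIs in the lowest and 7911 in the highest bin with RP-6306, and 10565 and 8447 with vehicle.

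**Figure D4:**
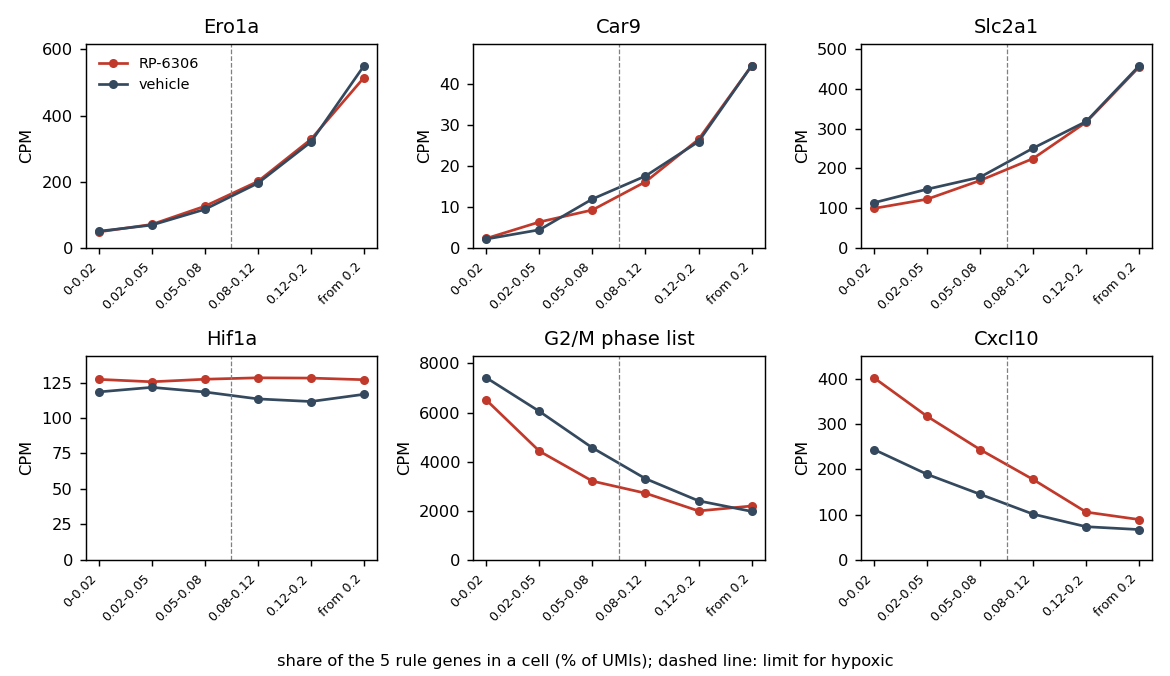
Level in CPM (y axis) of selected genes and of the summed G2/M list by the rule's share of UMIs (x axis, 6 bins, with a dashed line at the 0.08% threshold), 1 line per library. Ero1a stands at 47.7 CPM in the lowest and 515 CPM in the highest bin with RP-6306, Hif1a is flat, and Cxcl10 goes the other way.

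Stress lists were mixed. Of 18 integrated stress response genes, all tested, 16 were higher in hypoxic cells of both libraries, with medians of 0.58 with RP-6306 and 0.23 with vehicle. Among these 18 genes 4 were called, against 1.84% of all tested genes. Chac1, which degrades glutathione, stood at 44.6 and 13.6 CPM in hypoxic and remaining cells with RP-6306 and at 60.4 and 25 CPM with vehicle. Trib3, a pseudokinase induced by ATF4, stood at 74.3 and 29.9 CPM with RP-6306 and at 60.9 and 34.2 CPM with vehicle. Ddit3, which encodes CHOP, stood at 97.8 and 48.9 CPM with RP-6306 and at 100.1 and 52.5 CPM with vehicle. The fourth called gene was Vldlr, which is on both lists. Of 18 chaperones of the endoplasmic reticulum only Dnajb9, a co-chaperone of BiP, was called, at 0.73 and 0.87. For 10 of the other chaperones the direction differed between the libraries, with list medians of -0.07 and 0.19.

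Most cholesterol synthesis and interferon response genes were slightly lower in hypoxic cells, and fatty acid synthesis and antigen presentation genes were mixed. For comparison, 3789 of all 7787 tested genes were lower and 2815 higher in both libraries. Of 17 tested cholesterol synthesis genes, 15 were lower in hypoxic cells of both libraries, with medians of -0.30 with RP-6306 and -0.34 with vehicle, and only Fdps, farnesyl diphosphate synthase, was called, at -0.66 and -0.65. Elovl6, a fatty acid elongase, was the called gene of 7 tested fatty acid synthesis genes, at -0.97 and -0.89, and 4 of the 7 were lower in both libraries. Of 14 tested of 33 listed type I interferon response genes 10 were lower in both libraries, with medians of -0.14 and -0.31. Isg20, an exonuclease, was the only one called, and it was higher, at 0.72 and 0.86. Cxcl10, the called gene of 10 tested chemokines and cytokines, stood at 141 and 337 CPM in hypoxic and remaining cells with RP-6306 and at 86.6 and 195 CPM with vehicle. Psmb10, a subunit of the immunoproteasome, was the called gene of 13 tested of MHC class I presentation, at -0.59 in each library. Of those 13, 7 were lower in both libraries and 3 higher, and the list's sum in hypoxic cells was 1.06 times that of remaining cells with RP-6306 and 1.01 times with vehicle. Of 12 tested p53 targets, Pmaip1, which encodes NOXA, and Gadd45a, a stress sensor, were called higher, at 0.70 and 0.93 and at 0.86 and 0.80. That is 2 of 12, against 1.84% of all tested genes.

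Of the lists read as checks, ribosomal protein and immediate-early genes moved little, and the median of cell death genes was slightly lower. None of 30 ribosomal protein genes was called, with medians of 0.02 with RP-6306 and 0.04 with vehicle. None of 17 tested immediate-early and dissociation stress genes was called, at 0.04 and 0.00, and none of 9 tested cell death genes, at -0.16 and -0.29.

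Of the markers of other cell types, macrophage markers were low, with 1 exception, while fibroblast and dendritic cell markers had larger sums, given below. Of 12 macrophage markers only Cd68, a lysosomal membrane protein, was high enough to be tested, at 27.0 and 8.78 CPM in hypoxic and remaining cells with RP-6306 and at 31.5 and 9.01 CPM with vehicle. It passed the filter of 10 CPM only through hypoxic cells. The 12 summed to 58.5 CPM with RP-6306 and 60.2 CPM with vehicle in hypoxic cells, against 39.3 and 38.7 CPM in remaining cells. Without Cd68 the sums were 31.5 and 28.8 CPM in hypoxic cells and 30.5 and 29.7 CPM in remaining cells, so the difference between hypoxic and remaining cells lay in Cd68. In leukocyte barcodes the 12 summed to 14884 CPM. The rule itself limits 4 of the 12, Ptprc, Lyz2, C1qa and Fcer1g. Adgre1 was at 0 in hypoxic cells with RP-6306.

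The 7 T cell markers summed to 2.55 CPM with RP-6306 and 1.61 CPM with vehicle in hypoxic cells, against 2.61 and 1.73 CPM in remaining cells, and Cd8a was at 0 in hypoxic cells of both libraries. The 5 erythroid markers summed to 1.54 and 0.579 CPM in hypoxic cells, against 1.67 and 0.504 CPM. Neutrophil markers summed to 41.8 and 25.5 CPM in hypoxic cells, against 38.9 and 29.5 CPM, nearly all from Mmp9, which stood at 35.1 and 23.6 CPM in hypoxic cells. T cell, erythroid and neutrophil sums were thus close between hypoxic and remaining cells. Dendritic cell markers summed to 197 and 206 CPM in hypoxic cells, against 238 and 260.4 CPM, mostly from Fscn1, and the dendritic marker Xcr1 was at 0 in hypoxic cells. Fibroblast markers summed to 763 and 694 CPM, against 879 and 811 CPM, with Col1a1, Col3a1 and Pdgfrb tested and none called. Endothelial markers summed to 58.9 and 53 CPM, against 87.1 and 72.2 CPM, with Plvap called lower and Cdh5 not called. Plvap passed the filter of 10 CPM only through remaining cells. The part of stromal RNA in the lower genes was not tested.

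Between the treatments, hypoxic cells differed in few genes. Of 7787 genes, 34 (0.437%) were at least 1.5-fold higher and 34 (0.437%) at least 1.5-fold lower in RP-6306 than in vehicle hypoxic cells, with 1 library each and no test. At a threshold of 0.12%, and without Ndrg1 in the rule, 66 genes were lower. At any fold, 3159 of the 7787 genes were higher and 4628 lower with RP-6306, and counts by direction below stand against these. The median log2 ratio over all tested genes was -0.03. The same threshold chose the cells in both libraries, which favours like levels of oxygen-responsive genes: glycolysis genes had a median of -0.08 and Ero1a a ratio of 1.005 (0.968 to 1.04).

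The genes higher with RP-6306 held several of the interferon response. Isg15, a ubiquitin-like protein induced by interferon, stood at 82.4 CPM in RP-6306 and 40.0 CPM in vehicle hypoxic cells, a ratio of 2.06 (1.90 to 2.24), and at 109 and 61.5 CPM in remaining cells. Rsad2, which encodes the antiviral protein viperin, stood at 41.1 and 18.1 CPM in hypoxic cells, and at 62.4 and 22.4 CPM in remaining cells. Bst2, which encodes tetherin, stood at 117 and 67.7 CPM in hypoxic cells, and Cxcl10 at 141 and 86.6 CPM, a ratio of 1.63 (1.54 to 1.73). Of 14 tested of 33 listed interferon response genes 13 were higher with RP-6306 and 7 were called, against 0.437% of all tested genes. How many called genes passed the filter of 10 CPM only through the RP-6306 library was not counted. The median log2 ratio of the 14 tested genes was 0.61 in hypoxic and 0.33 in remaining cells, so the difference was present outside the hypoxic cells too. Of 12 macrophage markers the single tested one, Cd68, was at -0.21 between the treatments. The 12 summed to 58.5 CPM with RP-6306 and 60.2 CPM with vehicle. Neutrophil markers summed to 41.8 and 25.5 CPM in RP-6306 and vehicle hypoxic cells, a ratio of 1.64, and T cell markers to 2.55 and 1.61 CPM, a ratio of 1.58. Of the neutrophil markers, Mmp9 stood at 35.1 and 23.6 CPM and S100a8 at 3.26 and 0.828 CPM. The part of RNA from these cell types in the interferon difference was not tested.

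Of the other genes with the highest ratios at 50 CPM or more, Vcam1, an adhesion molecule for leukocytes, stood at 93.2 CPM in RP-6306 and 51.6 CPM in vehicle hypoxic cells, and Rnf213, a large ubiquitin ligase, at 55.4 and 32.5 CPM. Hsph1, a cytosolic chaperone, stood at 242 and 149 CPM, Gadd45g, a stress sensor, at 246 and 157 CPM, and Atf5, a transcription factor of the integrated stress response, at 201 and 129 CPM. Cyb5r1, a flavin reductase, stood at 61.6 and 39.4 CPM and Glipr2 at 103 and 66.5 CPM. The log2 ratio in remaining cells was 0.60 for Vcam1, 0.89 for Hsph1 and 0.50 for Gadd45g, and 0.35 for Rnf213, 0.26 for Atf5, 0.24 for Cyb5r1 and 0.23 for Glipr2. P4ha2, named above, was also called, at a ratio of 1.505 (1.43 to 1.59).

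On the lower side, Crip1, a small LIM protein, stood at 44.2 CPM in RP-6306 and 76.6 CPM in vehicle hypoxic cells, a ratio of 0.578 (0.530 to 0.629). In leukocyte barcodes Crip1 stood at 747 CPM, and the part of leukocyte RNA in its difference was not tested. Among genes with at least 50 CPM in the hypoxic cells of either library it was the only one past 1.5-fold lower. The other called genes stood lower there, such as Ccnb2, cyclin B2, at 21.7 and 34.8 CPM and a log2 ratio of -0.66. The next genes at 50 CPM or more in hypoxic cells fell short of 1.5-fold: Eml2, a microtubule-associated protein, at -0.57, Msmo1, a sterol oxidase, at -0.57, Lurap1l at -0.56, S100a4, a calcium-binding protein, at -0.55, Cenpa, the centromeric histone, at -0.53, and Id1, an inhibitor of differentiation factors, at -0.53. Mcub, which limits mitochondrial calcium uptake, was at -0.51, Insig1, a sterol sensor, at -0.51 and Atraid at -0.50. All 10 were lower with RP-6306 in remaining cells too, at -0.72 to -0.24.

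All 17 tested cholesterol synthesis genes were lower in RP-6306 hypoxic cells, with a median log2 ratio of -0.47, against -0.43 in remaining cells, and 4 were called, against 0.437% of all tested genes. Among these, Pmvk, phosphomevalonate kinase, was at -0.70, Cyp51, a sterol demethylase, at -0.67 and Idi1, an isomerase of isoprenoids, at -0.64. Of 47 tested G2/M genes 46 were lower with RP-6306 and 5 were called, against the same 0.437%, with a median of -0.31 in hypoxic and -0.37 in remaining cells. In the integrated stress response, 14 of 18 genes were higher with RP-6306, with a median of 0.17 in hypoxic and -0.08 in remaining cells, and Chac1 was the lowest at -0.43. Endoplasmic reticulum chaperones had medians of 0.12 in hypoxic and 0.37 in remaining cells.

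**Figure D5:**
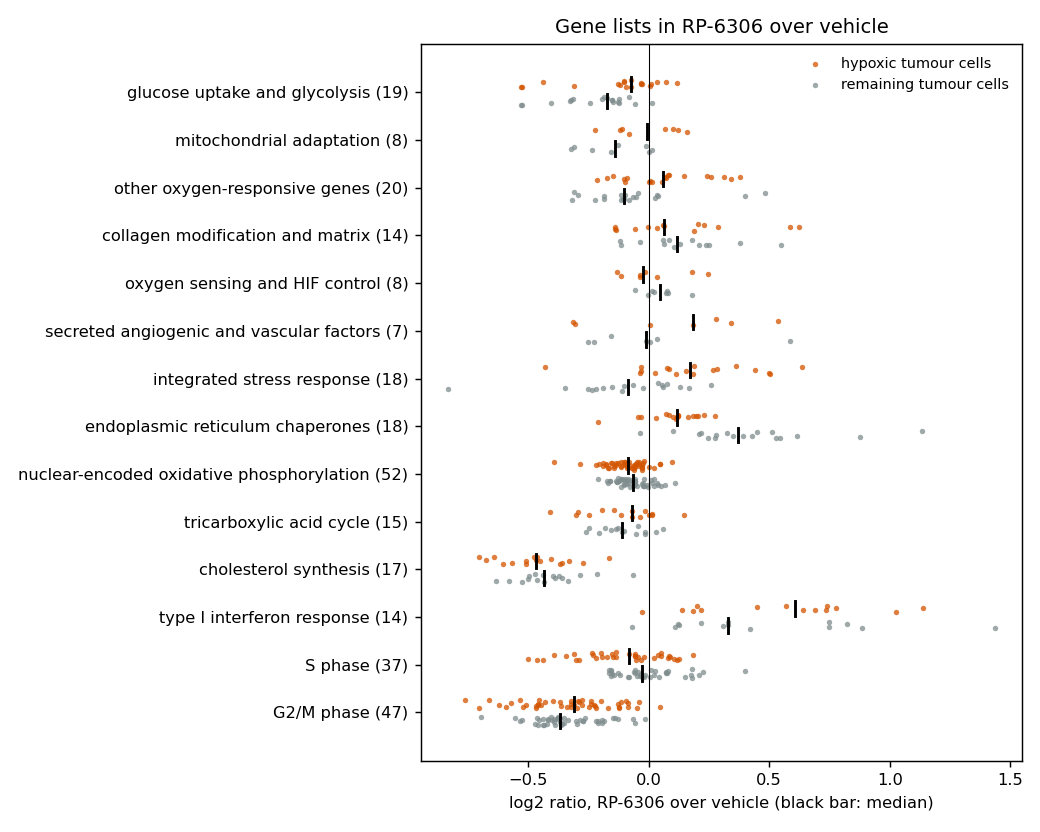
Log2 ratio of RP-6306 over vehicle (x axis) for the tested genes of each list (y axis), 1 point per gene, with hypoxic cells above remaining cells and a black bar at each median. The medians of interferon response genes stand at 0.61 and 0.33 and cholesterol synthesis genes at -0.47 and -0.43.

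Finally, the ratio of hypoxic to remaining cells was compared between the libraries. It was at least 1.5-fold higher with RP-6306 for 4 of 7787 genes (0.0514%) and at least 1.5-fold lower for 10 (0.128%), so very few genes differed. Over the alternatives that kept the same filter on low genes, the higher ones numbered 0 after thinning to 19 at a threshold of 0.12%. The 4 higher ones, named after their values were seen, were Slc6a9 and Slc1a4, which carry amino acids, Mmp13 and Kpna2, a nuclear import factor. Mmp13 stood at 55.0 and 15.7 CPM in hypoxic and remaining cells with RP-6306 and at 35.3 and 16.1 CPM with vehicle. At 50 CPM or more the 5 highest differences were Grb10, an adaptor that damps insulin signalling, at 0.52, Trib3 at 0.47, Mthfd2, a folate enzyme of mitochondria, at 0.47, Ddit4, an inhibitor of mTORC1 also called REDD1, at 0.46, and Psph, which makes serine, at 0.45. Ddit4 stood at 144 and 69.1 CPM with RP-6306 and at 129 and 86.4 CPM with vehicle, and Mthfd2 at 201 and 126 CPM with RP-6306 and at 141 and 123 CPM with vehicle.

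The 5 lowest differences were Sdf2l1 at -0.86, Creld2 at -0.65, Manf at -0.45, Hspa4l at -0.45 and Sec11c at -0.44. Sdf2l1, Creld2 and Manf are luminal proteins of the endoplasmic reticulum that rise with misfolded proteins, Hspa4l is a cytosolic chaperone and Sec11c a subunit of the signal peptidase. Sdf2l1 stood at 90.3 and 141 CPM in hypoxic and remaining cells with RP-6306 and at 74.6 and 63.6 CPM with vehicle, so the libraries differed more in remaining than in hypoxic cells. Manf stood at 843 and 1052 CPM with RP-6306 and at 753 and 685 CPM with vehicle.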

How the data were processed

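The data were droplet single-cell libraries of the 3' end of RNA, 1 from RP-6306 and 1 from vehicle RM-1 tumours. The deposited matrices hold raw UMI counts per gene and cell barcode for 55357 features. Cell Ranger 7.1.0 wrote them, per the file headers. Version 2.1.1 of the same tool and the build mm10 are given per the submitters' processing notes, and the difference in version was not reconciled. Reads that match several genes are usually left out by such counting, so genes with near-identical copies, such as Gapdh, Pgk1 and Ldha, may be undercounted. Total counts were 106465655 UMIs with RP-6306 and 100815022 with vehicle, over 10512 and 9686 barcodes.

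The cells and gene lists were chosen with earlier results of these data known. Counts of the chosen cells were summed per library and scaled to CPM, and log2 ratios used a pseudocount of 1. Genes were kept at a mean of at least 10 CPM over the 4 sums and 100 UMIs, with the 5 rule genes apart. Named genes were the 15 highest and 15 lowest between hypoxic and remaining cells, by the smaller of the 2 libraries' ratios, the 10 highest and 10 lowest between treatments, and the 5 highest and 5 lowest differences of ratios, at 50 CPM or more. Up to 8 genes of each list were also named. For this naming 17 tested genes under 0.1 of their level in leukocyte barcodes were left out. Intervals were exact Poisson, binomial or conditional ones at 95%, and cover counting error only. No p-value was computed, since cells of 1 library are not replicates. Scrublet in scanpy 1.11.5 was run at an expected rate of 0.08. Its automatic threshold called 1 doublet with RP-6306 and 0 with vehicle, so it did not work, and doublets were kept; leaving out the 8% of cells with the highest scores was an alternative. Other alternatives were the rule's threshold, thinning to 2000 UMIs, each rule gene left out, the mitochondrial and leukocyte limits, scaling by TMM or median of ratios (edgeR 4.0.16 in R 4.3.3), the mean over cells, the pseudocount, the filter on low genes and weighting by depth. Thinning served only to choose the cells, whose full counts were then compared. An alternative restricted to cells with little cell cycle RNA was chosen after seeing the data. Python 3.11.15, numpy 2.4.6, scipy 1.17.1 and pandas 2.3.3 were used. The ratios and calls were tested on simulated data, and the intervals were not. Promoters came from RefSeq on GRCm38.p6.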

Additional observations from a re-analysis of the deposited data

Results flagged for a closer look

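For 5 of the genes named in the comparison of ratios, hypoxic cells were on opposite sides of remaining cells in the 2 libraries. With 1 library each, the difference was not tested. The log2 ratio of hypoxic over remaining cells of Grb10 was 0.46 with RP-6306 and -0.06 with vehicle, a difference of 0.52. That of Sdf2l1 was -0.63 with RP-6306 and 0.23 with vehicle, a difference of -0.86. Creld2 had -0.45 and 0.20, a difference of -0.65, and Manf -0.32 and 0.14, a difference of -0.45. Sec11c had -0.13 and 0.31, a difference of -0.44.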

How the results depend on the processing

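No paired analysis was possible because each treatment is 1 library. The share of hypoxic cells was 30.6% with RP-6306 and 41.0% with vehicle at a threshold of 0.06% (difference -10.5 points), 11% and 15.2% at 0.12% (-4.22) and 26.0% and 33.6% after thinning to 2000 UMIs. It was 27.6% and 38.3% (-10.6) in cells with little cell cycle RNA, an alternative chosen after seeing the data. Without Bnip3 in the rule the difference was -6.65, without Egln3 the RP-6306 share was 22.5%, and without Ndrg1 the vehicle share was 32.2% and the difference -11.7. The share was lower with RP-6306 in each of these.

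Thinning changed only which cells were chosen, and genes were compared on full counts. Genes higher in hypoxic cells numbered 55 after thinning, 80 without Ndrg1, 86 in cells with little cell cycle RNA, 252 with no CPM limit and 59 at 50 CPM. Lower ones numbered 151, 145, 48, 490.0 and 81 in the same order. All 55 of the higher genes after thinning, 77 of the 80 and 78 of the 86 were among the 143 called, and 31 of the 48 lower ones were among the 311. Between the treatments, higher genes numbered 166 with no CPM limit and 9 at 50 CPM, and lower ones 66 at a threshold of 0.12%, 66 without Ndrg1, 155 with no CPM limit and 2 at 50 CPM. Higher ratios with RP-6306 numbered 2 at 0.06%, 19 at 0.12%, 0 after thinning, 2 without Ndrg1, 7 in cells with little cell cycle RNA, 96 with no CPM limit, 0 at 50 CPM and 2 with depth weighting, and lower ratios 24 at 0.12%, 4 after thinning, 3 without Ndrg1, 140 with no CPM limit and 2 at 50 CPM. The cause of these shifts was not tested beyond the number of genes or cells left.

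In cells with little cell cycle RNA the smaller of the 2 libraries' ratios of hypoxic over remaining cells changed sign for Aurkb, at 0.026, and Nusap1, at 0.061. Over 39 named genes and 19 alternatives, 739 of 741 values were not reversed in sign. A value of 0, where the libraries differ in direction, counts as not reversed. Of the values, 28 were under 1.5-fold, among them Serpinb2 at 0.49 and Nppb at 0.31 without Ndrg1. All 39 genes were past 1.5-fold in the main comparison, and changed limits on CPM leave a ratio as it is. The 39 included the rule's own genes, Bnip3, Egln3, Ankrd37, Ndrg1 and Pdk1. Their direction followed from the choice of cells wherever they stayed in the rule. Part of this agreement was thus fixed in advance. Low counts limit single genes most in the hypoxic cells with RP-6306, the smallest of the 4 sums.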
